A study of Neurospora crassa with 16 samples.

Results

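The 8 genes described here belong to the circadian clock and the blue light response of Neurospora crassa, a filamentous fungus and the classic fungal model of both. They were taken by locus from a given list, out of 9730 genes counted in RNA-seq libraries of a strain that lacks lsd1, the gene of lysine-specific demethylase 1, a histone demethylase. The 5 genes of the clock core are frq (NCU02265), frh (NCU03363), fwd-1 (NCU04540), wc-1 (NCU02356) and wc-2 (NCU00902), and the 3 light-response genes are vvd (NCU03967), bli-3 (NCU07267) and bli-4 (NCU08699). All 8 symbols stand in the reference gene table for these loci. The question put to them was whether light-induced genes changed in the absence of lsd1 while the clock core did not.

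The series holds 16 samples of bisulfite sequencing, ChIP-seq and RNA-seq, of which the 2 RNA-seq libraries of Δlsd1 strain N5555 have counts and the other 14 were not analysed here. N5555 is of mating type a and carries the hygromycin marker hph in place of lsd1. Germinated conidia, the asexual spores, were grown in shaken Vogel's minimal medium with 1.5% sucrose for 16 h at 32 °C. The light regime of the cultures was not given in the sources used here. Both libraries come from 1 strain, and nothing in the labels says that they came from separate cultures, so their spread may be technical. The wild type, strain N3752, enters through 2 tables that the authors deposited, which list the genes they called higher or lower in Δlsd1. Its 2 libraries belong to another series, and N3752 is labelled mating type A elsewhere in this series, so that strain, mating type and series go together with the deletion and cannot be told apart from it. RNA came from whole cultures, in which more cells of a kind and more RNA per cell cannot be told apart.

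The Neurospora clock is a negative feedback loop. WC-1, a blue light photoreceptor and transcription factor, pairs with WC-2 to form the white collar complex, which activates frq. The FRQ protein, bound to the RNA helicase FRH, then inhibits the complex until FRQ is phosphorylated and handed to the proteasome by FWD-1, an F-box protein. In light the same complex switches on a wider set of genes, among them vvd, whose small photoreceptor protein damps the response, and the bli genes, which were first isolated as transcripts induced by blue light.

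The libraries held 7017726 and 6797672 reads on genes, and 7319 genes had at least 10 reads in each. Counts are given below as CPM, reads per 1000000 reads on genes, scaled by the trimmed mean of M values (TMM). The coefficient of variation between the libraries beyond counting error was 15.3%, which may be technical. As a check of the labels, lsd1 (NCU09120, named from knowledge of the gene) had 41 and 65 reads, and its mean normalised count in the authors' deposited table was 88.7 in Δlsd1 and 675 in wild type. The lsd1 reads came to 5.70 and 9.81 CPM, where 3 reads correspond to 0.417 and 0.453 CPM. Their source was not tested.

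Both bli genes rose in Δlsd1, and none of the 5 clock core genes was listed in either direction. Of the 8 genes, 2 stood in the authors' deposited table of higher genes and 0 in that of lower genes. Over all 8692 genes with a read in Δlsd1 or a listing, 3.51% were listed higher and 8.69% lower in the authors' deposited tables. Both bli genes had an adjusted p under 0.05, as did 3.14% of all genes among the higher ones, and both were at 2-fold or more in each Δlsd1 library alone, as were 2.55% of all genes. Within the 3 light-response genes, bli-3 and bli-4 were listed higher and vvd was not listed. Of the clock core, 0 of 5 genes were listed. The authors' deposited tables give a wild-type level only for the genes they hold, so the difference between the 2 groups of genes was not tested. The groups follow the given list. The white collar complex also activates frq, so they do not part its targets from other genes. Of 7 further light-induced output genes, described below, 1 was listed higher, 1 lower and 5 were unlisted.

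The strongest case was bli-4 (chromosome II, 3723739 to 3725844 on assembly NC12). On the authors' scale it had a normalised count of 22911 in replicate 1 and 24924 in replicate 2 of Δlsd1, against the authors' wild-type mean of 8521. Both Δlsd1 libraries thus lay well above that mean, and close to each other. The authors' deposited table gave bli-4 a fold change of 2.81, a log2 fold change of 1.49 and an adjusted p = 9.10e-15. With replicate 1 alone the log2 difference from the authors' wild-type mean was 1.43, and with replicate 2 alone 1.55. By its mean normalised count in Δlsd1, which is not corrected for gene length, bli-4 was first among the 305 genes of the authors' deposited table of higher genes, ahead of NCU09041, whose Δlsd1 mean was 18594. It was 7th by unadjusted p. By fold change it was 70th of 305, with the median log2 fold change of that table at 1.25.

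The other bli gene of the 8, bli-3 (chromosome IV, 4577531 to 4578760), changed by a similar amount with a wider spread. Its normalised count on the authors' scale was 12329.9 in replicate 1 and 8492 in replicate 2 of Δlsd1, against the authors' wild-type mean of 3955. Both libraries were again above wild type, replicate 1 more so. The authors' deposited table gave bli-3 a fold change of 2.63, a log2 fold change of 1.40 and an adjusted p = 0.00970. With replicate 1 alone the fold over the authors' wild-type mean was 3.12, and with replicate 2 alone 2.15. In the table of higher genes bli-3 was 8th by mean normalised count in Δlsd1, 100th by fold change and 229th by unadjusted p. No other gene of the reference table has a symbol that begins with bli-. Synonyms were not searched for bli names, so the set may be incomplete.

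**Figure D1:**
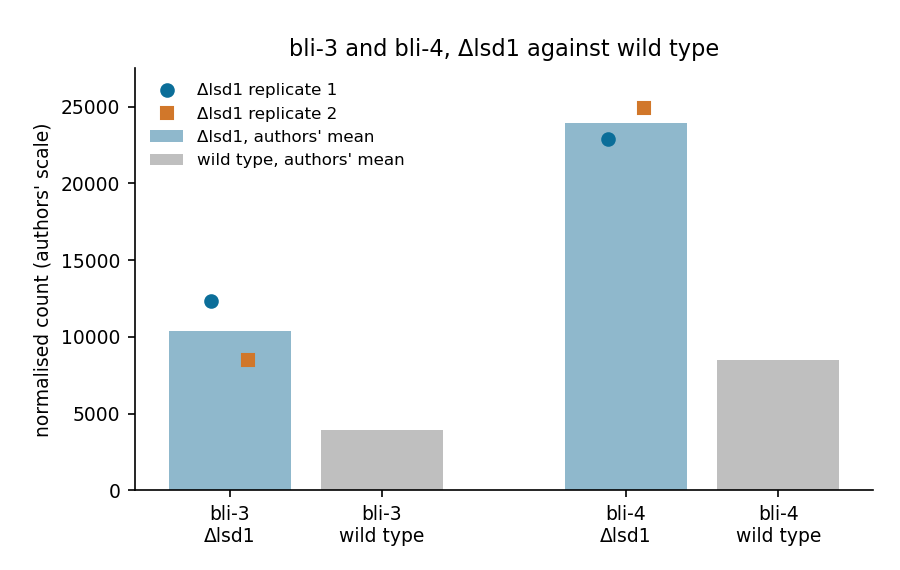
Normalised counts of bli-3 and bli-4 on the authors' scale (linear axis from 0). Bars are the authors' means for Δlsd1 and wild type, the circle and the square are the Δlsd1 replicates, and no wild-type replicates are shown. All 4 Δlsd1 points lie above the wild-type bar of their gene, and the replicates of bli-3 lie farther apart than those of bli-4.

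The genes beside them were not listed, as most genes were not: 12.2% of all genes were listed in either direction. No wild-type level is given for these neighbours, so an equal level is not shown. The immediate neighbours of bli-3 are NCU07268 and NCU07266, and those of bli-4 are NCU08697 and NCU08700. The reads of these 4 neighbours numbered between 23 and 82 per library. The annotated end of bli-3 overlaps NCU07266 by 154 bp, and that of fwd-1 overlaps NCU04541 by 224 bp. Whether counting used strand was not given in the sources used here, so reads in these stretches cannot be told apart.

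In the authors' deposited tables, the listed genes most like bli-4 in their 2 group means were NCU09041, at a distance of 0.38 on the log2 scale over both means, cat-1, a catalase gene, at 0.39, and NCU06465 at 0.44. The next were NCU05627 and NCU00451, at 0.98 and 1.18. Nearest to bli-3 was NCU07439, at 0.07, which the authors' deposited table gives a mean of 10190.2 in Δlsd1 and 4137 in wild type. It was followed by NCU02765 (0.30), NCU07962 (0.37), NCU04227 (0.49) and NCU09810 (0.57).

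The photoreceptor gene vvd (chromosome VI, 2268533 to 2271812) was abundant in Δlsd1 without being listed. It had 9033 reads in replicate 1 and 10848 in replicate 2, or 1255 and 1637 CPM. Per kb of gene span, vvd was at the 98.3rd percentile of counted genes. On the same scale bli-3 was at the 99.3rd and bli-4 at the 99.5th percentile, and the core genes between the 64.8th for frh and the 78.4th for wc-1. No wild-type level of vvd is given in the authors' tables.

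The positive arm of the clock was moderately expressed and unlisted. The photoreceptor gene wc-1 (chromosome VII, 2767393 to 2773846) had 976 and 1059 reads, a level of 148 ± 17.1 CPM (SD, n = 2). Its partner wc-2 (chromosome I, 6815517 to 6819124) had 391 and 340 reads, a level of 52.8 ± 2.14 CPM (SD, n = 2). Per kb of gene span, which includes introns, wc-1 stood 1.40-fold above wc-2 in replicate 1 and 1.74-fold above it in replicate 2.

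The negative arm was also unlisted. The central clock gene frq (chromosome VII, 3131640 to 3136464) had 604 reads in replicate 1 and 713 in replicate 2, or 83.9 and 108 CPM. Its helicase partner frh (chromosome II, 964247 to 968587) had 313 and 378 reads, or 43.5 and 57.0 CPM. Both genes were thus higher in replicate 2, and their ratio hardly moved. Per kb of gene span, frh stood at 0.576 times frq in replicate 1 and 0.589 times in replicate 2. The F-box gene fwd-1 (chromosome VII, 1508970 to 1513148), which mediates FRQ turnover, had 523 and 527 reads, a level of 76.1 ± 4.84 CPM (SD, n = 2). The frq locus is known to give rise to an antisense RNA, qrf, as well, and reads of the strands cannot be told apart unless counting used strand.

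The authors' deposited tables begin at a 2-fold change and an unadjusted p of 0.0497. A missing listing does not show an equal level: it leaves a change under 2-fold, or a larger one with a wide spread, unseen.

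Ordered by level per kb of gene span in Δlsd1, the genes fell into a high and a low group. Among the light-response genes, bli-4 had 1011 ± 61.7, bli-3 753 ± 195 and vvd 441 ± 82.3 CPM per kb (SD, n = 2). Below them came wc-1 at 22.9 ± 2.65, frq at 19.8 ± 3.47, fwd-1 at 18.2 ± 1.16, wc-2 at 14.6 ± 0.593 and frh at 11.6 ± 2.21 CPM per kb (SD, n = 2). The libraries of neighbours in this order overlapped for wc-1 and frq, and for frq and fwd-1, and did not overlap for the other neighbours. The ratio of vvd to frq per kb was 22.0 in replicate 1 and 22.4 in replicate 2. The ratio of bli-4 to frq was 55.6 and 47.3, and that of bli-3 to frq was 51.2 and 27.6. The 5 core genes together took 0.0400% and 0.0444% of gene reads, and the 3 light-response genes 0.450% in each library.

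**Figure D2:**
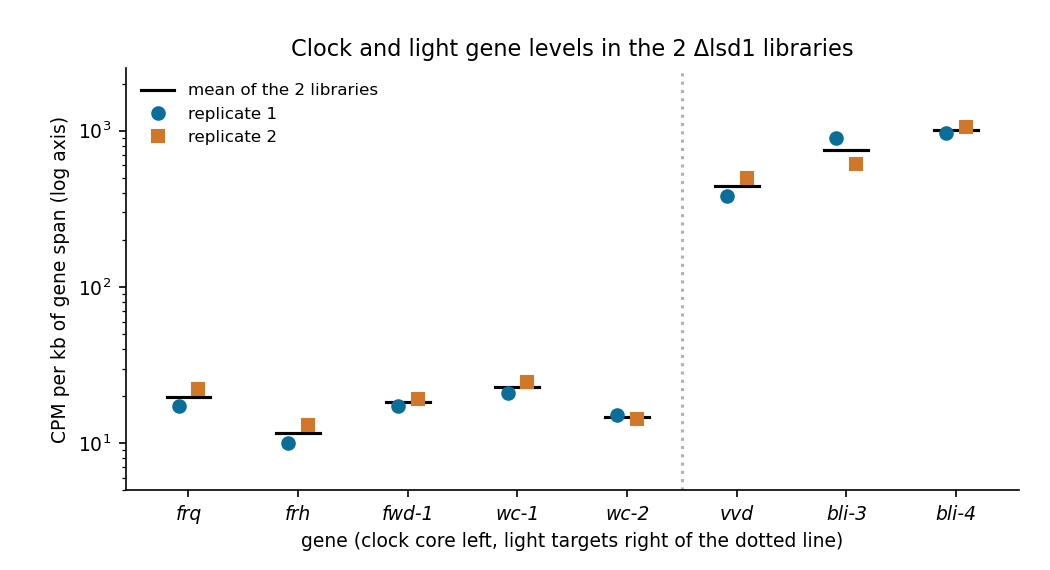
Level of each gene in the 2 Δlsd1 libraries, as CPM per kb of gene span on a log axis. The circle is replicate 1, the square replicate 2 and the bar their mean. The 3 light-response genes lie between 383 and 1054 CPM per kb, and the 5 clock core genes between 10.0 and 24.8.

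The libraries differed from each other for many genes, bli-3 among them. An exact binomial test of each gene's split between the libraries, adjusted over all 7319 genes and covering counting error only, called 27.1% of genes. It called 6 of the 8 genes here, which are deeply covered. Of these, frq, frh, wc-1, vvd and bli-4 were higher in replicate 2, by 0.12 to 0.39 on the log2 scale. The sixth, bli-3, was 1.45-fold higher in replicate 1, a log2 difference of -0.53 for replicate 2 over replicate 1. That difference was larger in size than for 86.5% of genes, against 31.6% for bli-4.

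Genes of conidiation moved between the libraries in the same direction as bli-3. The 5 markers of conidia and conidiation summed to 1500 CPM in replicate 1 and 434 CPM in replicate 2, with eas, the hydrophobin gene, making up most of the sum at 1351 and 338 CPM. All 4 markers with at least 10 reads in each library passed the exact binomial test as higher in replicate 1, against 13.1% of all genes, and con-13, the fifth, had 1 read and 0. The markers con-6, con-10 and eas are also among the 7 light-induced output genes described below. Of those 7, 5 passed as higher in replicate 1, al-2 and ccg-1 among them, and 1 as higher in replicate 2. The 2 lists thus do not part conidiation from light response. The part of either list in the bli-3 result was not tested. The fold of bli-3 over the authors' wild-type mean was 3.12 in replicate 1 alone and 2.15 in replicate 2 alone. For eas, fl and con-13 the authors' tables give no wild-type level.

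**Figure D3:**
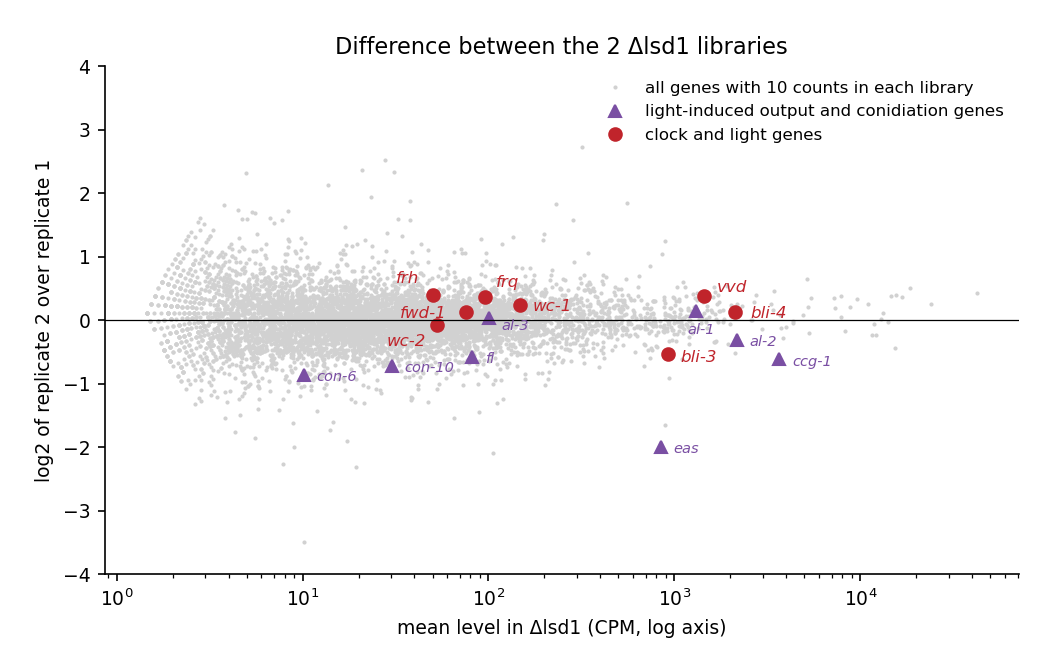
Difference between the Δlsd1 libraries for each gene, as log2 of replicate 2 over replicate 1, against its mean level in CPM on a log axis. Red circles are the 8 clock and light genes, purple triangles the light-induced output and conidiation genes, grey dots all 7319 genes tested. Among the red circles bli-3 lies lowest, at -0.53, and eas lies lowest among the triangles, being 3.99-fold higher in replicate 1.

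Of 41 further clock and light pathway genes in 6 lists, 3 were listed in the authors' deposited tables, 2 higher and 1 lower, where 12.2% of all genes were listed in either direction, 3.51% higher and 8.69% lower. Most genes of any kind were thus unlisted. Of 12 kinase, phosphatase and period genes, which include the casein kinase gene ck-1a and the checkpoint kinase gene prd-4, 1 was listed. This was pkac-1, the catalytic subunit of protein kinase A, a kinase that acts on FRQ. It had 1990 and 1899 reads, and in the authors' deposited table a mean normalised count of 3164 in Δlsd1 and 1492 in wild type. The authors' deposited table gave pkac-1 a log2 fold change of 1.08 (adjusted p = 1.40e-07), with 1.06 for replicate 1 alone and 1.11 for replicate 2 alone. The gene of the regulatory subunit, mcb, was not listed.

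None of the 5 other photoreceptor and photolyase genes, cry, phr, phy-1, phy-2 and nop-1, was listed, and their levels ran between 5.98 and 1746 CPM. Likewise none of the 4 transcription factor genes downstream of the white collar complex, sub-1, csp-1, adv-1 and hsf-2, was listed (35.1 to 767 CPM). The same held for the 4 chromatin factor genes tied to frq, ngf-1, set-1, rco-1 and rcm-1 (27.7 to 220 CPM). Of 11 clock-controlled genes 0 were listed, with levels of up to 42342 CPM, and 1 of them, ccg-4, a pheromone precursor gene of the other mating type, had no read.

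Among 7 light-induced output genes the picture was mixed, with 1 listed higher, 1 lower and 5 unlisted. The carotenoid genes al-1, al-2 and al-3, ccg-1 and eas were unlisted. The conidiation gene con-10 fell: the authors' deposited table gave a mean of 343 in Δlsd1 and 1153 in wild type, a log2 fold change of -1.75 and an adjusted p = 8.70e-15. For con-6, listed higher, the authors' deposited table gave a mean of 116 in Δlsd1 and 43.8 in wild type, a log2 fold change of 1.41 and an adjusted p of 0.162. It rested on 95 and 48 reads, and with replicate 2 alone the log2 difference from the authors' wild-type mean was 0.92.

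**Figure D4:**
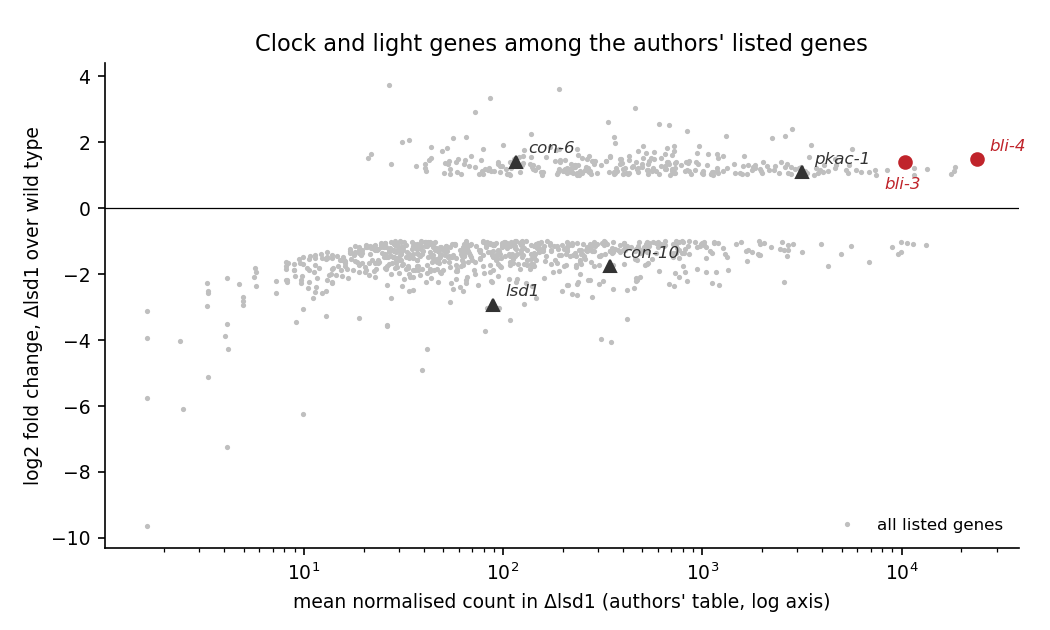
Log2 fold change of Δlsd1 over wild type against the mean normalised count in Δlsd1 (log axis), for all 1060 genes of the authors' deposited tables. Red circles are bli-3 and bli-4, dark triangles the listed pathway genes and lsd1. The bli genes lie at 1.40 and 1.49, at the right edge of the plot where few genes are listed, with bli-4 farthest right among higher genes.

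The genes also differed in where they lie relative to 250 deposited genomic regions, whose calling method was not given in the sources used here. Of the 8 genes 1, frq, overlapped a region, against 2.43% of all counted genes. The region on chromosome VII from 3124462 to 3136809 covers 100% of the annotated frq gene. It is 12348 bp long, the sixth longest of the list, where the median is 2171 bp. It begins 7178 bp beyond one end of frq and ends 345 bp beyond the other, and overlaps no other counted gene. The frq promoter is known for DNA methylation in wild-type strains. The region list is labelled lsd1, but gives no score or strain for the region. Of 97 counted genes that lie wholly inside a region, 3 were listed higher and 20 lower in the authors' deposited tables, and frq was among the 74 unlisted. Over all genes 3.51% were listed higher and 8.69% lower.

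Within 5 kb of a region lay 2 of the 8 genes, against 7.88% of all counted genes, and within 10 kb 3 of the 8, against 12.6%. All 3 belong to the clock core. The region nearest wc-1 (chromosome VII, 2764250 to 2765728) lies 1.67 kb from it, between wc-1 and NCU02357. That neighbour, singled out after its values were seen, was listed lower, and the authors' deposited table gave it a mean of 343 in Δlsd1 and 844 in wild type. The region nearest frh (chromosome II, 949082 to 958579) lies 5.67 kb away. The gap was 31.6 kb for wc-2, 70.5 kb for fwd-1, 73.3 kb for bli-3, 196 kb for vvd and 284 kb for bli-4. Over all counted genes the median gap was 65.5 kb, and 95.5% of genes lay as near to a region as bli-4 or nearer. The gap of bli-3 was thus near the median, as was that of fwd-1. NCU02357 was not the only listed gene within 16 kb of frq, wc-1 or frh. Near frh, NCU03365, which overlaps the region there, NCU03361 and NCU03358 were listed lower, and near frq NCU02269 was listed higher. Over all genes 8.69% were listed lower and 3.51% higher.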

How the data were processed

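The files used were the deposited raw read counts per gene of both Δlsd1 libraries, the authors' 2 tables of called genes and a region list. Alignment used Bowtie2, and DESeq2 and deepTools are also named, per the submitters' processing notes. The kit for library preparation keeps strand, per the labels' protocols. Versions, the counting program, its strand setting and the alignment build were not given in the sources used here. Rows that name no gene were left out: reads outside genes were 12.3% and 12.7% of all counted reads, multiply aligned reads 3.74% and 3.38%.

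Per the file headers, the authors' tables give mean normalised counts (a signal), the ratio between groups (fold change), the same on a log2 scale, and p-values before and after adjustment. Their direction was settled from the values. The Δlsd1 means of all 1060 listed genes equal the mean of (count + 1) divided by size factors of 0.640 and 0.591, with a largest relative error of 5.10e-15. These factors put each library on the authors' scale. No wild-type counts were used here, so no count model between strains was fitted.

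The deposited region list holds positions only (unit other), on supercontigs taken as chromosomes I to VII of NC12 by number. Gene coordinates are those of the RefSeq table of NC12, which matched 9729 of 9730 identifiers. Counts were scaled with TMM in edgeR 4.0.16 (R 4.3.3) over genes that reached 10 counts in both libraries, and DESeq2 1.42.0 size factors served as an alternative. How each gene's reads divide between the libraries was put to a two-sided exact binomial test (scipy 1.17.1), adjusted by Benjamini-Hochberg over all genes at 0.05. The same kind of test, run in R, was tried on simulated counts that held counting error only. A floor of 3 reads corresponds to 0.417 and 0.453 CPM. Tables and plots used Python 3.11.15 with pandas 2.3.3, numpy 2.4.6 and matplotlib 3.10.9.

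The 8 genes, the lists and the tests were chosen with earlier results of these data known. The rule named all 8, each listed gene of the lists, the immediate neighbours of called genes and the 5 listed genes nearest to each called gene by the distance between log2 group means. Of the chromatin list, chd-1 was dropped because its locus carries another symbol in the reference table. The symbols of prd-1 and prd-2 come from knowledge, and ppp-1 is a synonym there.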

Additional observations from a re-analysis of the deposited data

How the results depend on the processing

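No paired analysis was possible because only 1 group, Δlsd1, has RNA-seq counts. Both bli genes stayed listed higher with an adjusted p under 0.05 and at 2-fold or more in each library alone, and the counts of 2 higher and 0 lower genes did not change. Such settings only take genes away from those the authors called, so the count of 0 lower genes could not rise. They reuse the same libraries and wild-type mean. Leaving out 1 library at a time gave log2 fold changes of 1.10 to 1.64 for bli-3 and 1.43 to 1.55 for bli-4 against the authors' wild-type mean. With an adjusted p under 0.05 required, con-6 left the higher genes, so 0 light-induced output genes remained there. Genes that differed between the libraries numbered 1983, against 1968 with DESeq2 size factors, 2083 with total gene counts and 1943 with a filter of 1 count in either library. No library difference of the 8 genes changed direction or its side of the threshold under these settings. Genes near a region numbered 2 within 5 kb and 3 within 10 kb, against 1 by overlap, since the wider distances take in wc-1 and frh. Order by exon length was not run, as the reference table gives only the gene span. The main limits are 2 libraries, 1 strain and no wild-type level for unlisted genes.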
